A study of Mus musculus with 6 samples.

Results

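The genes described here are 9 components of the machinery that releases synaptic vesicles, out of 50686 gene identifiers in the count files. They are the synaptotagmins Syt1, Syt2, Syt4 and Syt11, the SNARE proteins Snap25, Vamp2 and Stx1a, and the vesicle proteins Syp and Syn1. They were chosen by name, around Syt1, because Syt1 was already known to be higher in one group of these libraries, so the difference between the groups is given for them as a description and without a p-value. All 9 matched a single GENCODE vM21 gene and all 9 had enough reads to be among the 15521 genes tested. RNASeq was carried out on 2 cultures of NSC and 2 cultures labelled NSC Bmi1Over. NSC were neural stem cells from the subventricular zone of wild type E16.5 mouse embryos, grown with EGF and FGF as neurospheres or as an adherent layer, without a record of which form was sequenced. NSC Bmi1Over came from embryos of the same age with the alleles STOPFloxBmi1 and NestinCre, in which Cre under a Nestin promoter opens a Bmi1 transgene in neural progenitors and their progeny. H3K27me3 ChIPSeq was available as 1 list of peaks for each of these genotypes.

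In a nerve terminal, transmitter-filled vesicles are docked at the plasma membrane and fuse with it when calcium enters. Fusion is driven by a SNARE bundle formed by Vamp2 on the vesicle with Stx1a and Snap25 on the plasma membrane, and Syt1 and Syt2 are the calcium sensors that trigger it. Cells that do not signal by synapses use related SNAREs and synaptotagmins for general membrane traffic. Several of these genes are silenced outside neurons by the repressor REST, which binds the RE1 element, and H3K27me3 is the mark laid down by Polycomb repressive complex 2 at silent developmental genes.

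Between 18112100 and 61353076 reads were counted on genes per RNASeq library, the deepest being NSC Bmi1Over replicate 2. Expression is given as CPM, a gene's reads relative to the library's total, scaled by the trimmed mean of M-values (TMM). The share of unmapped reads was 11.2% and 13.7% in NSC replicates 1 and 2 and 16.2% and 17.6% in NSC Bmi1Over replicates 1 and 2. The 10 most abundant genes took 5.23%, 6.48%, 8.57% and 10.1% of counted reads in the same order. Bmi1 did not bear out the labels, with 133.3 and 123.5 CPM in NSC and 118.6 and 112.6 CPM in the libraries labelled NSC Bmi1Over, and every direction below rests on those labels. Of the neural stem cell markers 10 of 10 were tested, with Fabp7 the highest per length, Hes5 and Prom1 at or below 10.1 CPM and a summed level of 5999 to 6667 CPM in NSC and 6537 to 6697 CPM in the libraries labelled NSC Bmi1Over. None of them passed in edgeR's test (2 lower at an unadjusted p under 0.05, beside 7.22% of all genes, and 1 higher with DESeq2, which called 8.39% of all genes higher). Groups did not overlap for 6 that were lower, beside 30.0% of all genes, and for 1, Slc1a3, that was higher, beside 29.0%.

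Syt1, the calcium sensor for fast release, was the gene on which the choice was made. In mm10 it spans 108497650 to 109010982 of chromosome 10, on the minus strand (ENSMUSG00000035864). Syt1 was counted at 9.13 and 27.2 CPM in the NSC cultures and at 66.5 and 95.8 CPM in the cultures labelled NSC Bmi1Over. The groups did not overlap, and the NSC cultures themselves stood apart, with replicate 2 at 2.98 times the level of replicate 1. NSC averaged 18.2 ± 12.8 CPM (SD, n = 2), against 81.2 ± 20.8 CPM (SD, n = 2) for the other group. The log2 fold change was 2.18 (standard error 0.41), a fold of 4.52. Its size rested on single libraries, as it was 1.58 without NSC replicate 1 and 3.15 without NSC replicate 2. The order of the 4 libraries in Syt1 was also that of their unmapped share and of the share taken by the 10 most abundant genes, whose part in the result was not tested. In these bulk libraries, more cells with Syt1 and more Syt1 RNA per cell cannot be told apart.

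The RefSeq window around the start of Syt1, from 250 bases before it to 50 after it, lies on the minus strand of GRCm38.p6 at chr10:109010926-109011225 and is shown because the result turns on this gene. Capitals mark the GC box GGGCGG, which begins 11 bases before the start, and CTGTCC, the reverse complement of the right arm of RE1 (GGACAG), which begins 161 bases before it.
Syt1: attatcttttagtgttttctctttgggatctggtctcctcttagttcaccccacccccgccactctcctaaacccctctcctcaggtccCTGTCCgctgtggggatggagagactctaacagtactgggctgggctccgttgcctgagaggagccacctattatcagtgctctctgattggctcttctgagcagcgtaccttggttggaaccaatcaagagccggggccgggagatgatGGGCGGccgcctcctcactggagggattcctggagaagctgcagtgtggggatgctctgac
The left arm of RE1, TTCAGCACC, was not found in this window on either strand. The right arm by itself was present in 22.2% of the 32851 windows of this length and the GC box in 35.7%, which is the background for these matches.

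Of the other synaptotagmins chosen, Syt2, a close relative of Syt1 in fast hindbrain and spinal synapses, was barely expressed. It was counted at 0.602 and 0.672 CPM in NSC and at 0.80 and 1.28 CPM in the libraries labelled NSC Bmi1Over, with 14 to 73 reads per library. The groups did not overlap, but the 14 reads of NSC Bmi1Over replicate 1 have a Poisson interval of 7.65 to 23.5 reads (95%, counting error only). The log2 fold change of Syt2 was 0.78 (standard error 0.37), and 0.33 without NSC Bmi1Over replicate 2.

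Syt4, a synaptotagmin of dense-core vesicles that lacks calcium binding in its first C2 domain, was counted at 0.539 and 0.356 CPM in NSC and at 0.343 and 0.927 CPM in the libraries labelled NSC Bmi1Over. These groups overlapped, since the libraries labelled NSC Bmi1Over held both the lowest and the highest value. The log2 fold change of 0.66 (standard error 0.50) turned to -0.40 without NSC Bmi1Over replicate 2. Some reads of Syt4 were left out as ambiguous, because the antisense gene Gm26658 shares 566 bp of exon with it. Summing the strand columns gave 1.26 times as many.

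Syt11, the relative of Syt4 that acts in vesicle traffic and endocytosis in many cell types, was by far the most abundant of the 9 (ENSMUSG00000068923, minus strand of chromosome 3, 88744700 to 88775164). Its level was 617.4 and 777.1 CPM in NSC and 768.4 and 983.2 CPM in the libraries labelled NSC Bmi1Over. The groups overlapped, and the log2 fold change was 0.33 (standard error 0.20).

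Among the SNAREs, the values of the plasma membrane pair went opposite ways. Stx1a (ENSMUSG00000007207) lies on the plus strand of chromosome 5 from 135023482 to 135051100, and Snap25 (ENSMUSG00000027273) on the plus strand of chromosome 2 from 136713453 to 136782428. Stx1a, the plasma membrane syntaxin of the neuronal bundle, was counted at 10.1 and 12.9 CPM in NSC and at 14.2 and 18.3 CPM in the libraries labelled NSC Bmi1Over. Its groups did not overlap and the log2 fold change was 0.51 (standard error 0.19). Snap25, which brings the other plasma membrane helices to the bundle, went the other way, from 7.03 and 5.50 CPM in NSC to 3.71 and 5.13 CPM. Its groups did not overlap either, by a narrow gap between NSC replicate 2 and NSC Bmi1Over replicate 2, and the log2 fold change was -0.48 (standard error 0.25).

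Vamp2, the vesicle SNARE (ENSMUSG00000020894, plus strand of chromosome 11, 69088490 to 69092384), varied little across the libraries. It stood at 109.9 and 95.1 CPM in NSC and at 94.0 and 105.2 CPM in the libraries labelled NSC Bmi1Over, so that the groups interleaved. The log2 fold change was -0.04 (standard error 0.13).

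Syp encodes synaptophysin, a major membrane protein of the vesicle and a partner of Vamp2 (ENSMUSG00000031144, plus strand of chromosome X, 7638471 to 7653256). It was counted at 11.9 and 16.7 CPM in NSC and at 17.0 and 23.0 CPM in the libraries labelled NSC Bmi1Over. The groups did not overlap, although NSC replicate 2 and NSC Bmi1Over replicate 1 were nearly equal, and the log2 fold change was 0.50 (standard error 0.21). The level of Syp is an underestimate in all libraries. The antisense gene Gm14703 shares 875 bp of exon with it, reads there were left out as ambiguous, and the strand columns summed to 1.76 times the unstranded count. On those sums NSC replicate 2, at 5.74 RPKM (reads per kb of exon on the CPM scale), was above NSC Bmi1Over replicate 1, at 5.62 RPKM, so that the groups of Syp overlapped.

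Syn1, synapsin, tethers vesicles in the reserve pool. Its level was 13.2 and 14.6 CPM in NSC and 9.65 and 13.8 CPM in the libraries labelled NSC Bmi1Over. The groups overlapped, with NSC Bmi1Over replicate 1 the lowest, and the log2 fold change was -0.22 (standard error 0.20).

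**Figure D1:**
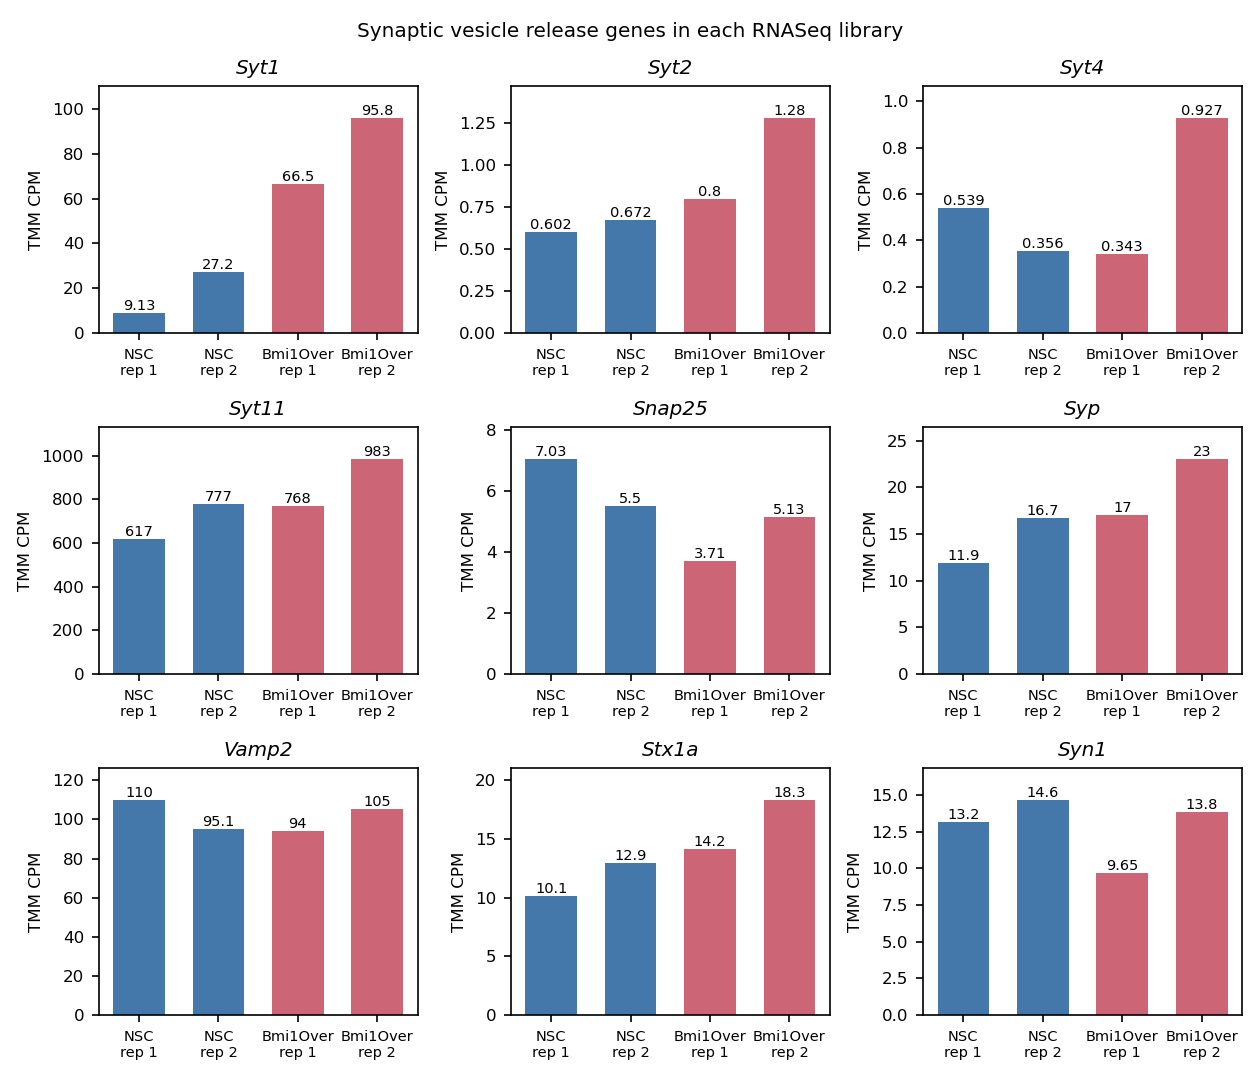
Expression of each of the 9 genes in the 4 RNASeq libraries, in TMM-scaled CPM on linear axes that start at 0 and differ between panels, with 1 bar per library (NSC in blue, libraries labelled NSC Bmi1Over in red). Syt1 spans 9.13 to 95.8 CPM while Vamp2 stays between 94.0 and 109.9 CPM.

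Across the 9 genes, 6 had a positive and 3 a negative log2 fold change, with a median of 0.50 beside a median of -0.01 over all genes tested. In the fit over all genes, 1 of the 9 had a Benjamini-Hochberg adjusted p under 0.05 in edgeR's quasi-likelihood test, which was Syt1 itself, where 2.15% of all genes tested passed. As the choice of genes used this contrast, nothing is read from that count, which was 0 with DESeq2's size factors or without NSC Bmi1Over replicate 2. Groups did not overlap with higher values in the libraries labelled NSC Bmi1Over for 4 of the genes (Syt1, Syt2, Syp and Stx1a), where 29.0% of all genes tested did so, and with lower values for 1 (Snap25), where 30.0% did so. The same 4 genes had the libraries in the order of Syt1, Syt1 being 1 of them. This order, from NSC replicate 1 as the lowest to NSC Bmi1Over replicate 2 as the highest, was shared by 17.6% of all genes tested. With the strand columns summed, Syp left both counts, and 3 genes (Syt1, Syt2 and Stx1a) were apart and higher and in that order. NSC Bmi1Over replicate 2 was above replicate 1 in 9 of 9 genes, as in 49.7% of all genes tested, and was the highest library in 6, as in 34.0% of all. Syt1, on which the choice was made, is in the median and in the counts of positive, higher and ordered genes. Nothing is read from those either.

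**Figure D2:**
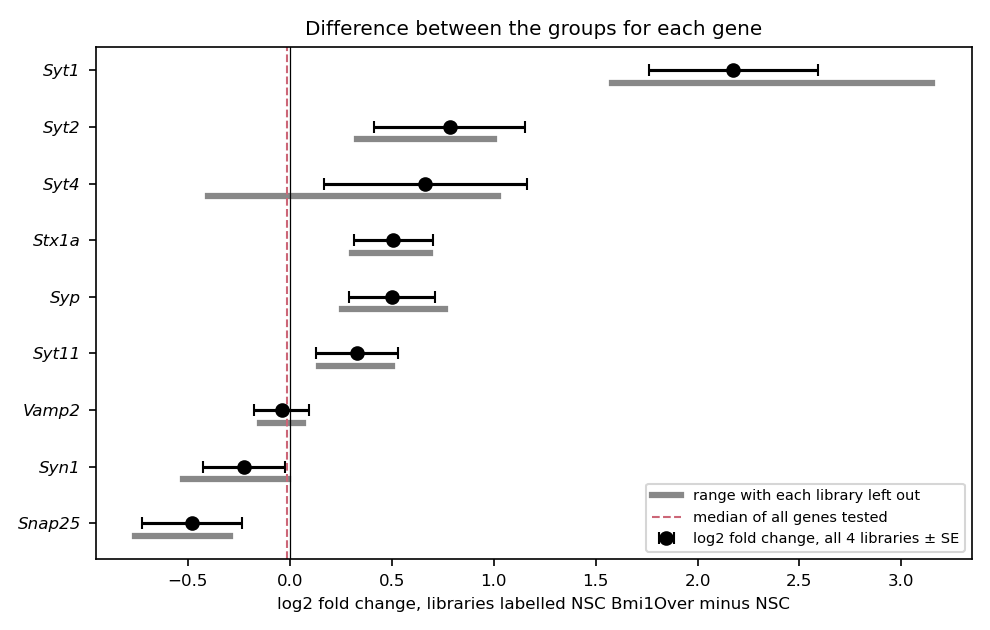
Log2 fold change of each gene between the libraries labelled NSC Bmi1Over and NSC (points, with bars of 1 standard error from the edgeR fit) and its range when each library was left out in turn (grey). Syt1 lies at 2.18 with a range of 1.58 to 3.15, whereas the range of Syt4 crosses 0, from -0.40 to 1.02, as does that of Vamp2.

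Levels were compared between genes as RPKM, the same TMM-scaled values divided by the length of all annotated exons in kb, which understates genes with long unused exons. In NSC, Syt11 came first at 134.0 ± 21.7 RPKM (SD, n = 2), above 99.0% of the protein-coding genes in the files. Vamp2 followed at 26.9 ± 2.73 RPKM. Stx1a at 4.32 ± 0.750 and Syn1 at 4.21 ± 0.318 RPKM did not differ beyond their spread, nor did Syp at 2.74 ± 0.662 and Syt1 at 2.18 ± 1.53 RPKM. With the strand columns summed, which restores the reads shared with Gm14703, Syp came to 4.89 ± 1.20 RPKM in NSC and 6.67 ± 1.48 RPKM in the other group, overlapping the values of Stx1a in both. Snap25 stood at 0.923 ± 0.160 RPKM, with Syt4 at 0.115 ± 0.0332 and Syt2 at 0.0834 ± 0.00652 RPKM last. The order thus covered a wide range, and the lowest synaptotagmins were close to absent.

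In the libraries labelled NSC Bmi1Over the order changed at Syt1, which came after Syt11 and Vamp2 at 9.73 ± 2.49 RPKM, where Syt11 stood at 168.3 ± 29.2 and Vamp2 at 26.1 ± 2.08 RPKM. Stx1a stood at 6.09 ± 1.10, Syp at 3.84 ± 0.813, Syn1 at 3.56 ± 0.890 and Snap25 at 0.651 ± 0.147 RPKM. Syp and Syn1 overlapped in their values, though not with the strand columns summed, and so did Syt4 at 0.163 ± 0.106 and Syt2 at 0.136 ± 0.0442 RPKM. By its mean level, Syt1 passed from above 56.2% of protein-coding genes in NSC to above 77.8% of them.

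The SNAREs that pair in the neuronal bundle were far from equal in these cells. Per length, Vamp2 was 27.8 and 30.8 times as abundant as Snap25 in the NSC libraries and 45.1 and 36.6 times in those labelled NSC Bmi1Over. Some related genes of general membrane traffic, picked out after their values were seen, were above their neuronal counterparts in every library. Snap23, which replaces Snap25 in non-neuronal cells, was 7.48 to 16.2 times as abundant as Snap25, and Stx4a was 2.92 to 5.66 times as abundant as Stx1a. For the vesicle side, Vamp3 was 1.24 to 1.72 times as abundant as Vamp2, while Vamp4 at 6.57 to 9.29 RPKM and Vamp7 and Vamp8 at or below 0.225 RPKM were under it. Syt11 exceeded Syt1 by 108.4 and 45.7 times in NSC and by 18.5 and 16.4 times in the libraries labelled NSC Bmi1Over, which follows the values of Syt1.

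**Figure D3:**
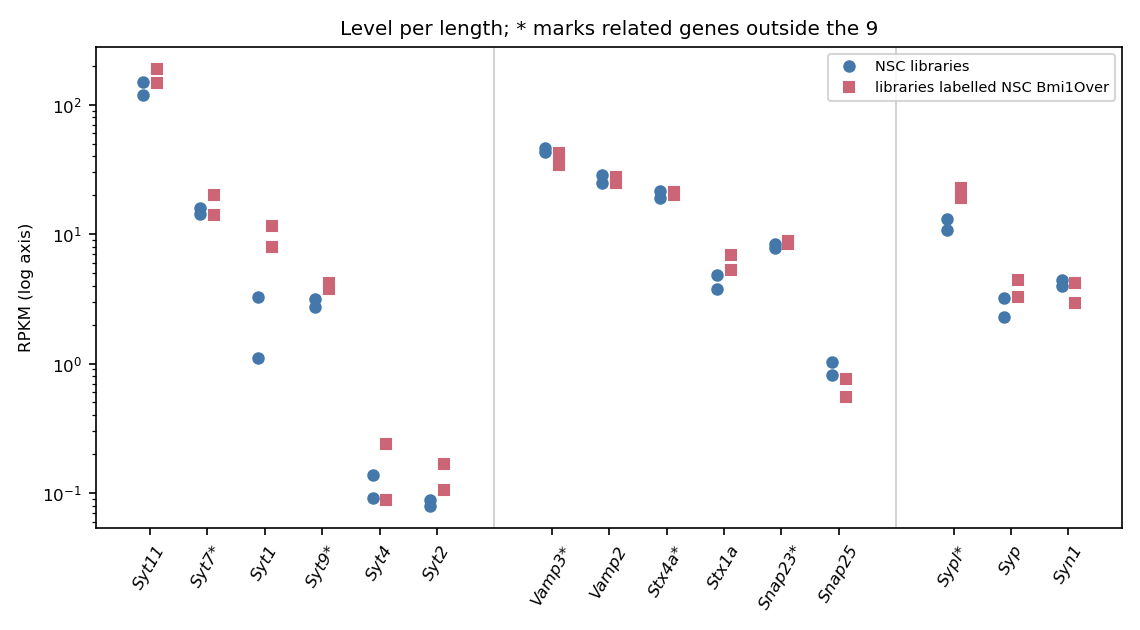
RPKM of the 9 genes and of related genes (starred) in each library, on a log axis, with synaptotagmins on the left, SNAREs in the middle and vesicle proteins on the right. Syt11 sits above 100 RPKM in all libraries, Syt2 and Syt4 near 0.1 RPKM, and Snap25 is below Snap23 throughout.

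H3K27me3 was looked at next, as it played no part in the choice of genes. Each peak carries a q-value and a fold enrichment over the MACS2 background. Genes with a peak no more than 5 kb from one of their annotated transcription start sites (TSS) are called marked. Of the 9 genes, 2 (Syt2 and Syn1) were marked in the NSC list, where 8.87% of 21841 protein-coding genes were, and 1 (Syt2) in the NSC Bmi1Over list, where 4.40% were. With 1 library per genotype the lists cannot be set against a replicate error and no test of their difference was run. The study's methods describe aligned read totals that differed several times over between ChIPSeq libraries and reached further up in NSC, and the part of depth in the difference between the lists (12982 peaks in NSC and 6810 in NSC Bmi1Over) was not tested.

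Syt2, marked in both lists, had the lowest mean RPKM of the 9 genes in both groups, although its values overlapped those of Syt4 in the libraries labelled NSC Bmi1Over. It lies on the plus strand of chromosome 1 from 134646677 to 134762593. In NSC a peak of 2691 bp, from 134645809 to 134648499, spanned its start, enriched 5.51-fold with a −log10 q of 5.87. Another 2 short peaks of 263 and 283 bp lay upstream, from 134643319 to 134643581 and from 134644786 to 134645068. In NSC Bmi1Over there was a single peak of 530 bp, from 134647285 to 134647814 in the gene, 604 bp past the nearest TSS, with a fold enrichment of 4.88. With a fold enrichment of at least 5 or a length of at least 1000 bp, Syt2 stayed marked in NSC but not in NSC Bmi1Over.

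At Syn1, on the minus strand of chromosome X from 20860511 to 20921004, the NSC list held 1 peak of 319 bp, from 20925112 to 20925430 and 4108 bp upstream of the gene. Its enrichment (3.52-fold) and its −log10 q (1.77) were the lowest values of the whole list, and it was lost with a window of 1 kb. The other 7 genes had no peak within 5 kb of a TSS or in the gene in either list. For Syt1 this covered a gene of 513333 bp, and the nearest peak was 5269281 bp from its nearest TSS in NSC and 5600554 bp in NSC Bmi1Over. Syt4, the other gene of very low expression in NSC, had no peak in either list.

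**Figure D4:**
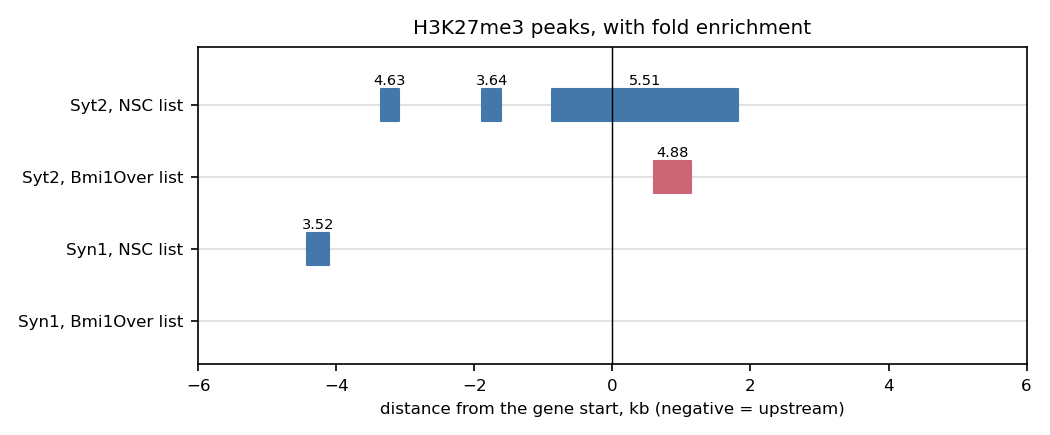
H3K27me3 peaks near the start of Syt2 and Syn1 in the NSC list (blue) and the NSC Bmi1Over list (red), drawn to scale as distance from the gene start in kb, with the fold enrichment above each peak. The NSC peak of 2691 bp spans the start of Syt2, and the Syn1 row of NSC Bmi1Over is empty.

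The windows at the starts of these genes are shown as those of the marked genes, and a peak covers that of Syt2 alone. That of Syt2 (plus strand of GRCm38.p6, chr1:134646362-134646661) lies wholly in the widest NSC peak and outside the NSC Bmi1Over peak. That of Syn1 (minus strand, chrX:20920869-20921168) is the only window of the set with the left arm of RE1. Capitals mark, in Syt2, the right arm of RE1 and the reverse complement of the GC box, and in Syn1 the left arm of RE1 followed by the cyclic AMP response element, TGACGTCA.
Syt2: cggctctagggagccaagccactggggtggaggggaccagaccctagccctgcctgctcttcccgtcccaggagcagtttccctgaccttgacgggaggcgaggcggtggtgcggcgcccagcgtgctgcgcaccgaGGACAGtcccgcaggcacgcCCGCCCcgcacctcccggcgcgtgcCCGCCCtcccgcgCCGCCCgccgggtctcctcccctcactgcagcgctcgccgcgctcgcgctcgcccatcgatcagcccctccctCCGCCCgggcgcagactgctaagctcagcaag
Syn1: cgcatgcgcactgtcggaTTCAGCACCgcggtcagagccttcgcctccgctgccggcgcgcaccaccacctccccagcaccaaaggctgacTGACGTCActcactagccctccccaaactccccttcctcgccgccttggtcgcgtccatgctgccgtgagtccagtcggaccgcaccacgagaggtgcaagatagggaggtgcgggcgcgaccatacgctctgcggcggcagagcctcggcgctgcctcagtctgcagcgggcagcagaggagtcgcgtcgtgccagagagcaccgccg
RefSeq windows were found for 6 of the genes (Syt1, Syt2, Syt11, Syp, Stx1a and Syn1), with 8 windows in all because Syt1 and Syt2 have 2 starts each. On either strand, the GC box was in 6 of the 8 windows, the right arm of RE1 in 4, its left arm in 1 and the cyclic AMP response element in 1. Over all 32851 windows the left arm was in 0.371% and the cyclic AMP response element in 1.79%. The RE1 core that joins both arms, and so overlaps them, was in none of the 8 windows and in 0.0365% of all, and the TATA box TATAAA was in none of the 8 and in 13.6% of all. The GC content ran from 44% at the second start of Syt1 to 74.3% at the window of Syt2 printed above, beside a median of 52.7%, and Syt2 had 34 CpG there against a median of 7. These matches describe the letters of the windows and no binding was measured.

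To place the 9 genes in their pathway, 110 further genes of the release machinery were read from the same fit. Of these, 98 were tested, and 3 rose and 0 fell at an adjusted p under 0.05, where 2.03% of all genes tested rose and 0.122% fell. At an unadjusted p under 0.05 these were 22 and 7, where 17.0% and 7.22% of all genes were higher and lower, and with DESeq2 they were 6 and 4, where 8.39% and 1.25% were. The log2 fold change was positive for 51 and negative for 47, with a median of 0.02. Rimbp2, an active zone protein that links calcium channels to RIM, rose from 16.1 and 9.41 CPM in NSC to 46.3 and 39.9 CPM, a log2 fold change of 1.75 (standard error 0.23, adjusted p = 0.0166 in edgeR's quasi-likelihood test). Sypl, the broadly expressed relative of Syp, rose from 89.2 and 108.6 CPM to 159.1 and 187.9 CPM, a log2 fold change of 0.81 (standard error 0.15, adjusted p = 0.0411 in the same edgeR test). Cpe, the carboxypeptidase that processes prohormones in dense-core granules, rose from 842.8 and 942.8 CPM to 1980 and 1647 CPM, a log2 fold change of 1.02 (standard error 0.20, adjusted p = 0.0451 in the same edgeR test). Sypl was no longer called without NSC replicate 1 or without NSC Bmi1Over replicate 2, nor Cpe without NSC replicate 1, with DESeq2's size factors or after thinning. In all, 15 of 99 release genes passed without NSC Bmi1Over replicate 1 (15.6% of all genes did) and 10 of 100 without NSC replicate 2 (8.93% of all). Without NSC replicate 1 and without NSC Bmi1Over replicate 2 there were 2 each, beside 1.11% and 1.45% of all genes. Over the 98 genes tested, groups were apart and higher for 30, these 3 among them, and apart and lower for 24, beside 29.0% and 30.0% of all genes.

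By list, 0 of 10 tested synaptotagmins, 0 of 13 exocytic SNAREs, 0 of 18 SNARE partners and priming factors, 1 of 21 vesicle proteins, 1 of 13 active zone scaffolds, 0 of 15 retrieval genes and 1 of 8 granule cargo genes passed. The medians ran from -0.16 for the SNAREs, where 10 of 13 values were negative, to 0.42 for granule cargo, where 7 of 8 were positive. The genes with the highest level per length in NSC were Cpe at 342.2 ± 27.1, the secretory carrier protein Scamp5 at 56.4 ± 5.01 and Vamp3 at 44.5 ± 2.23 RPKM (SD, n = 2). Of the 9 genes of the REST repressor list 0 passed by edgeR or DESeq2, and Ehmt2, a histone methyltransferase, was the highest per length. Groups were apart for 4 that were lower, beside 30.0% of all genes, and for 1 that was higher, beside 29.0%. Rcor2, a corepressor that works with REST, was the 1 gene at an unadjusted p under 0.05, with 88.5 and 51.3 CPM in NSC and 28.2 and 45.6 CPM in the other group. Rest itself, named after its values were seen, stood at 47.4 and 40.7 CPM in NSC and at 42.8 and 40.4 CPM in the libraries labelled NSC Bmi1Over.

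**Figure D5:**
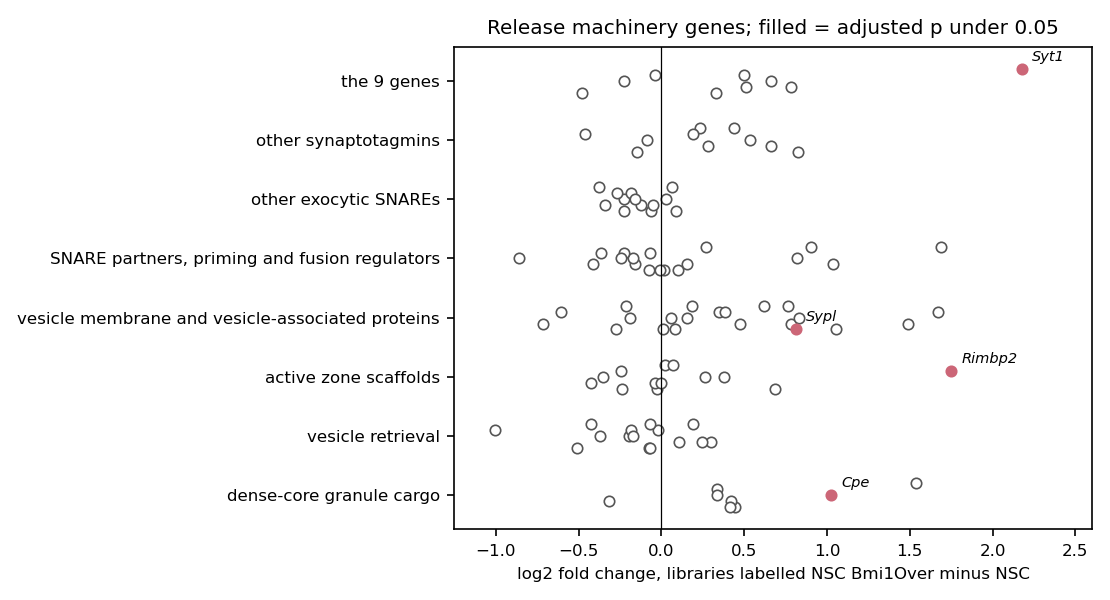
Log2 fold change of each tested gene of the release machinery, by list, with 1 point per gene and filled points for an adjusted p under 0.05 in edgeR's test. The 98 points outside the top row centre near 0 and only Sypl, Rimbp2 and Cpe are filled among them.

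Markers of other cell types are given beside these values. Of 12 neuron markers 11 were tested and 0 passed (1 higher at an unadjusted p under 0.05, beside 17.0% of all genes, and 0 with DESeq2), and their summed level was 1056.8 to 1077.8 CPM in NSC and 980.7 to 1084.7 CPM in the libraries labelled NSC Bmi1Over. Map2 made up most of that sum. Groups were apart for 3 of the 11, with Gap43 higher in the libraries labelled NSC Bmi1Over (log2 fold change 0.34) and Elavl4 and Nefm lower (-0.44 and -0.49), beside 29.0% of all genes apart and higher and 30.0% apart and lower. Gap43 ran from 65.4 to 97.7 CPM, Elavl3, Elavl4, Tubb3, Ina and Dcx lay between 3.83 and 31.0 CPM, and Rbfox3, Celf4, Nefl, Nefm and Stmn2 were at or below 3.01 CPM, Stmn2 being at 0 in 2 of the 4 libraries. Of 6 astrocyte markers Aldh1l1, a folate enzyme, fell from 122.2 and 94.2 CPM to 66.0 and 53.3 CPM (log2 fold change -0.86, standard error 0.17, adjusted p = 0.0440 in edgeR's test), a call lost without NSC replicate 1 or without NSC Bmi1Over replicate 2. Aldoc, the highest of them per length, had a log2 fold change of -0.80 (adjusted p = 0.0508 in edgeR's test), and the list had 2 lower and 0 higher both with DESeq2 (1.25% of all genes lower) and at an unadjusted p under 0.05 (7.22% lower). Gja1 went the other way at 0.22 with its groups apart, and the groups of Aqp4, Gfap and S100b overlapped. The summed level of that list was 259.9 to 332.4 CPM in NSC and 208.8 to 222.6 CPM in the other group, and its part in the values above was not tested. Oligodendrocyte lineage markers, led by Olig1, summed to 2481 to 2609 CPM in NSC and 2486 to 2565 CPM in the other group, with 0 of 7 tested passing by edgeR or DESeq2 or at an unadjusted p under 0.05. Olig1 and Olig2 made up most of that sum, and were lower in NSC Bmi1Over replicate 2 than in replicate 1. The other 6 of the 8, among them Sox10 (4.64 against 0.286 CPM), Pdgfra (44.5 against 16.5 CPM) and Cspg4 (424.5 against 250.3 CPM), were higher in replicate 2, as were the 9 genes. So were 9 of the 12 neuron markers and 10 of the 13 other synaptotagmins. For the exocytic SNAREs this was 4 of 14 and for the neural stem cell markers 4 of 10, beside 49.7% of all genes tested. The part of these lists in the difference between the replicates was not tested. Microglial, endothelial, mesenchymal and erythroid markers (6, 5, 7 and 6 genes, of which 1, 2, 2 and 1 were tested) each summed to at most 5.53 CPM in any library. Of those tested 0 were called by edgeR or DESeq2. P2ry12 and Tek were higher at an unadjusted p under 0.05 in edgeR's test, beside 17.0% of all genes. P2ry12, Tek, Acta2 and Alas2 were the highest of their lists per length, and Cldn5 and 4 globin genes were at 0 in every library.

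The genes most like Syt1 were sought among 13320 tested genes averaging 1 CPM or more, by the root mean square difference of centred log2 CPM over the 4 libraries. The closest were Tmem182, Clic5, Oxtr, Pcsk6 and Cdhr3, at 0.184, 0.193, 0.228, 0.248 and 0.263. None of them is a gene of the release lists. Tmem182 and Cdhr3 were low in NSC replicate 1, at 0.285 and 0.158 CPM, and Cdhr3 was not called (adjusted p = 0.0689 in edgeR's test). Oxtr, the oxytocin receptor, was counted at 0.444 and 1.62 CPM in NSC and at 5.54 and 5.93 CPM in the other group, and Pcsk6, a proprotein convertase, at 27.5 and 56.6 CPM against 136.1 and 186.7 CPM. The other 8 genes of the set lay between 0.994 (Syt2) and 1.57 (Snap25) from Syt1 by the same measure. The measure is centred but not scaled, so a gene with the library order of Syt1 and a smaller change, such as Syt2, also lies far away. With 4 libraries the measure describes these values alone.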

How the data were processed

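RNASeq was analysed in 4 libraries, 2 per group, and H3K27me3 ChIPSeq in 2. Per the labels and the study's methods, reads were trimmed with Trim Galore and aligned to mm10 with STAR, and the authors deposited raw read counts per gene, without normalisation. ChIPSeq reads were aligned with Bowtie2 2.3.4, multi-mapped reads were discarded, 1 library per condition was kept, and broad peaks were called with MACS2. The deposited peak lists give a fold enrichment (a ratio to background) and the −log10 of the p-value and q-value, together with a display score that was not used.

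Unstranded counts were fitted with edgeR 4.0.16 in R 4.3.3 (TMM, filterByExpr, quasi-likelihood F-test, group only), with p adjusted over 15521 genes. Of 50686 identifiers, 50462 matched GENCODE vM21, which has the build of the files. Standard errors were derived from the F statistic. The study calls the cultures of a group biological replicates. With 2 cultures per group an exact permutation test cannot pass the threshold and none was run. The fit was tested on simulated counts of this comparison (15503 genes, 200 changed), where 79% of 2-fold and 98% of 4-fold changes were called and 3.80% of calls were false. These shares describe the simulated counts, and those of the libraries themselves are not known.

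The 9 genes and all lists were chosen with earlier results of these data known. Named genes were the 9, Bmi1, the called genes and those highest in RPKM of each list, and the 5 nearest to Syt1, while all others were named after their values were seen. Alternatives were DESeq2 1.42.0, other scalings, filters, strand columns, gene sets and depth, the replicate number as a block, each library left out, and other limits for peaks. Promoter windows are from RefSeq (GRCm38.p6). The depth of the ChIPSeq libraries is described in the study's methods and not in the peak lists, and was not used. The mGIC samples were not analysed here. Sequences of Syt4 were not reported.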

Additional observations from a re-analysis of the deposited data

How the results depend on the processing

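All alternatives were set out together with the main design. Of the 115 log2 fold changes of the 9 genes under 13 alternatives, 109 moved by less than 1 SD between replicates. That SD is each gene's own, 0.83 on the log2 scale for Syt1, so a gene with unlike replicates passes easily. The alternatives also reuse the same libraries, so the count says little of how stable the values are. The 334 called genes became 1496 with DESeq2's Wald test, 537 with library size alone (median log2 fold change over all genes -0.17, with 64.4% of calls higher in place of 94.3%), 2356 with no filter on low counts, 189 after thinning and 3459 with the replicate block. Shares of higher calls were 87.0%, 80.3% and 70.3% under DESeq2's test, no filter and the block. The 1 called gene of the 9 became 0 with DESeq2's size factors and 4 with the block. The 3 called release genes of 98 became 10 of 98 (10.2%) with DESeq2's test and 9 of 98 (9.18%) with library size alone. They became 19 of 109 (17.4%) with no filter and 23 of 98 (23.5%) with the block. The counts over all genes given above for these settings are out of 15521 genes tested, or out of 28541 with no filter. With each library left out, the counts ranged from 176 to 2546 for all genes, from 0 (without NSC Bmi1Over replicate 2) to 3 (without NSC Bmi1Over replicate 1) for the 9 genes, and from 2 to 15 for the release genes. A fit with 1 library in a group assumes that it varies like the other group. The cause of these shifts was not tested. Same-numbered libraries deviated together at r = 0.169 over 15521 genes, but with 2 pairs and no shared litter or day in the labels the numbers do not pair the cultures. For peaks, the 2 genes marked in NSC became 1 with the window of 1 kb, a −log10 q of at least 3, a fold enrichment of at least 5 or a length of at least 1000 bp, and the 1 marked in NSC Bmi1Over became 0 under the last 2 of these. Depth limits Syt2 and Syt4 most, with 6 to 73 reads per library.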

Other observations

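H3K27me3 peaks were also counted at the 110 further genes of the release machinery. Of these, 17 were marked within 5 kb of a TSS in the NSC list and 12 in the NSC Bmi1Over list, where 8.87% and 4.40% of protein-coding genes were. Of the 6 vesicular transmitter transporters in the lists, picked out after their values were seen, 4 were marked in both peak lists, namely Slc17a6 and Slc17a7 for glutamate, Slc32a1 for GABA and glycine and Slc18a3 for acetylcholine, and each was at or below 0.315 CPM (at most 18 reads) in all 4 RNASeq libraries. The other 2 were unmarked in both, Slc17a8 for glutamate at 0.277 to 1.83 CPM and Slc18a2 for monoamines at 4.37 to 11.1 CPM. Of the 13 synaptotagmins outside the set, Syt6, Syt10, Syt13 and Syt14 were marked in NSC, and Syt10, Syt13 and Syt14 in NSC Bmi1Over too. None of the 14 exocytic SNAREs and none of the 13 active zone scaffolds was marked in either list.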
